A study of Mus musculus with 6 samples.

Results

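The amino acid transporter genes described here are the rows of a mouse gene table whose names belong to the families SLC1, SLC7, SLC36, SLC38 and SLC43, together with Slc3a2, Slc6a6, Slc6a9 and Slc6a17. These are 30 of 13962 genes, and 29 of them passed the expression filter and were tested among 13192 genes. The filter left out Slc7a7, which had at most 13 counts in any library. Slc38a9 had rows under 2 gene IDs, and the row with most counts was used. Of 44 genes listed by role for these families, 30 were analysed here, among them 8 of 11 SLC38 genes and 5 of 7 SLC1 genes. The transporter genes Slc7a10 and Slc7a8 were among those not analysed here.

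Amino acid transporters carry amino acids across the plasma membrane and across the membranes of lysosomes and synaptic vesicles, and they belong to several solute carrier (SLC) families. Some exchange one amino acid for another, while others use the sodium or proton gradient to concentrate their cargo. Light chains of the SLC7 family reach the cell surface bound to a heavy chain such as 4F2hc, encoded by Slc3a2. In fat cells, the proton-coupled transporter PAT2, encoded by Slc36a2, is known as a surface marker of brown and beige adipocytes.

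The study sequenced poly(A) RNA from C57BL/6 mouse cells in 2 groups of 3 libraries. The TLE3 KO group received 4-hydroxytamoxifen (500 nM) on day 4 for 24 hours to induce deletion of TLE3, a co-repressor of transcription related to fly Groucho, and the Control group received ethanol. All 6 libraries came from TLE3F/F CreERT2 preadipocytes of inguinal white fat immortalized with Large T antigen, differentiated with insulin (20 nM), T3 (1 nM), isobutylmethylxanthine (0.5 mM), dexamethasone (0.5 uM), indomethacin (0.125 mM) and rosiglitazone (1 uM) and harvested on day 10 as beige adipocytes. The floxed alleles and the inducible Cre were thus present in both groups, and cells without Cre were not among the samples, so tamoxifen, Cre activity and the deletion cannot be told apart. The labels do not state whether replicates came from separate cultures, so the spread behind each p-value is that between libraries and may be technical.

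Total counts ran from 14606228 to 19294632 per library. The targeted gene, Tle3 (ENSMUSG00000032280), was higher in the libraries labelled knockout, at 286.9, 288.9 and 294.2 CPM, against 151.4, 151.3 and 152.1 CPM in the controls (log2 fold change 0.94, SE 0.038, edgeR adjusted p 3.54e-07). CPM are counts relative to the library total, scaled by TMM factors. Counts over a whole gene do not measure the deleted exons and cannot check the labels, and each direction below is that of the libraries labelled knockout. The summed level of 10 adipocyte markers was 11108.9 to 12732.6 CPM in the libraries labelled knockout and 10006.8 to 11878.2 CPM in controls. That of 10 preadipocyte and fibroblast markers (Dpp4 and Pi16 were not analysed here) was 8049.9 to 8458.0 CPM in the libraries labelled knockout and 8275.9 to 9495.8 CPM in controls. The largest parts of this sum were Col1a1 (edgeR adjusted p 0.68) and Col3a1 (0.058), so it says little about the less abundant markers. The macrophage markers Adgre1, Ptprc, Itgam and Mrc1 and the endothelial markers Cdh5 and Emcn had no analysed row. The 3 macrophage markers that did summed to 4.74 to 5.39 CPM in the libraries labelled knockout and 3.66 to 4.75 CPM in controls, and the 4 endothelial ones to 3.53 to 4.30 CPM in the libraries labelled knockout and 2.30 to 3.83 CPM in controls. The 3 glial and neuronal markers with a row summed to 14.6 to 16.0 CPM in the libraries labelled knockout and 15.3 to 16.4 CPM in controls.

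Many transporter genes are switched on when amino acids run short, through the transcription factor ATF4 and a short element called the C/EBP-ATF or amino acid response element. Promoter windows running from 250 bases before to 50 bases after the transcription start were available from RefSeq (GRCm38.p6) for 21 of the 30 genes. The letters TGATGNAA, searched on both strands, occurred in a window of 3 of these 21 genes, or 14.3%, against 1219 of 27025 genes in the whole promoter table, or 4.51%. A gene with several windows has more chances of a match. Counted by window, 4 of 33 windows of these genes held a match, against 1304 of 32851 in the whole table, or 3.97%. The matching windows include overlapping windows of Slc7a7 that share the same TGATGCAA, so that site is counted more than once. Overlapping windows were not merged, here or in the whole table. The 3 genes were Slc7a11, Slc1a4 and Slc7a7. The windows of Slc7a11 (chr3:50443564-50443863, minus strand) and Slc1a4 (chr11:20332664-20332963, minus strand) are shown because they hold a match and both genes were tested; capitals mark the matches.
Slc7a11: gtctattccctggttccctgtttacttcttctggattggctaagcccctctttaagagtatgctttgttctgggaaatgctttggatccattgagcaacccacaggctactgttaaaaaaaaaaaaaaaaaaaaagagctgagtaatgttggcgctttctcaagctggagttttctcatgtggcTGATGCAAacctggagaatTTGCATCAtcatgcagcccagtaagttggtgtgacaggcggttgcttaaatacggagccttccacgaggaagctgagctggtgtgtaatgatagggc
Slc1a4: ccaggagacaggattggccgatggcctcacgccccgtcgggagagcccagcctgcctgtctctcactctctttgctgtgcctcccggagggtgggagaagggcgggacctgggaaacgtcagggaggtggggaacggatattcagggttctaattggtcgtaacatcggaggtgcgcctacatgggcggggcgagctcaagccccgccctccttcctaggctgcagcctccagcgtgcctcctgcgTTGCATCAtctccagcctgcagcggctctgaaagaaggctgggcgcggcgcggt
The Slc7a11 window held 2 matches, on opposite strands, that begin 66 and 47 bases before the start, and the Slc1a4 window held 1 match that spans the start. The windows of Slc36a4 and Slc7a1, which fell, hold no such letters. No window was available for Slc7a5, which also fell, or for Slc36a2, which rose. A match describes the letters in the window and not the binding of a factor.

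The transporters differed widely in abundance in these cells, from about 100 FPKM to below 1. Levels between genes are given here per transcript length, as the authors' deposited FPKM, which they rounded to whole numbers. The highest were Slc38a2, which encodes the sodium-coupled glutamine and alanine transporter SNAT2, at 107 to 110 FPKM in the libraries labelled knockout and 117 to 127 FPKM in controls, and Slc1a5, which encodes the glutamine exchanger ASCT2, at 104 to 111 FPKM in the libraries labelled knockout and 99 to 103 FPKM in controls. The level of Slc38a2 was above that of Slc1a5 in every control library, while their ranges overlapped in the libraries labelled knockout. The taurine transporter gene Slc6a6 (79 to 84 FPKM in the libraries labelled knockout and 71 to 78 FPKM in controls) and the heavy chain gene Slc3a2 (70 to 76 FPKM in knockout-labelled libraries and 72 to 85 FPKM in controls) came next, with overlapping ranges in controls. Slc36a2 (54 to 63 FPKM in knockout-labelled libraries and 40 to 48 FPKM in controls), Slc7a5 (40 to 43 FPKM in knockout-labelled libraries and 45 to 50 FPKM in controls), Slc7a6 (39 to 41 FPKM in knockout-labelled libraries and 36 to 37 FPKM in controls) and Slc7a1 (21 to 23 FPKM in knockout-labelled libraries and 23 to 25 FPKM in controls) followed. In all, 12 of the 30 genes stood at 10 FPKM or more in every library, and 5 were below 1 FPKM in at least 1 library, namely Slc1a2, Slc38a3, Slc38a4, Slc7a3 and Slc7a7.

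**Figure D1:**
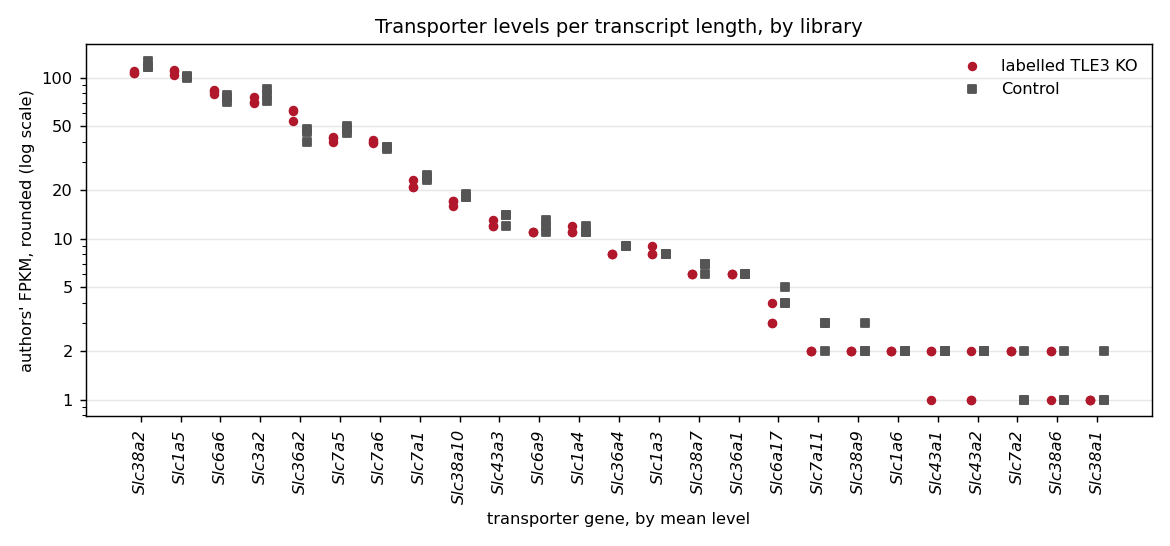
Level of each transporter gene per transcript length (the authors' rounded FPKM, log axis) for the 25 genes at 1 FPKM or more in every library, ordered by mean level; red circles are the 3 libraries labelled TLE3 KO and grey squares the 3 controls. Slc38a2 and Slc1a5 lead at about 100 FPKM, and the groups of Slc36a2 lie apart, at 54 to 63 FPKM in the libraries labelled knockout against 40 to 48 FPKM in controls.

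Few transporter genes were called as changed, and the fold changes of those called were small. A gene that was not called is not thereby shown to be unchanged. Of the 29 tested genes, 1 rose and 3 fell (edgeR quasi-likelihood test, Benjamini-Hochberg adjusted p under 0.05 over all 13192 genes). Over all tested genes 6.91% rose and 5.44% fell, or 12.3% in either direction, against 13.8% of the transporter genes, so the share of transporters called was near the background. Slc36a2 rose 1.35-fold, and Slc36a4, Slc7a5 and Slc7a1 fell to between 0.870 and 0.889 of their control levels. The median log2 fold change was −0.096 over the transporters and −0.0025 over all tested genes. An unadjusted p under 0.05 was found for 14 of the 29 genes, 10 of them not called, and for 27.9% of all tested genes. The 95% interval of the log2 fold change lay between −0.5 and 0.5 for 22 of the 29 genes, against 9922 of all 13192.

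**Figure D2:**
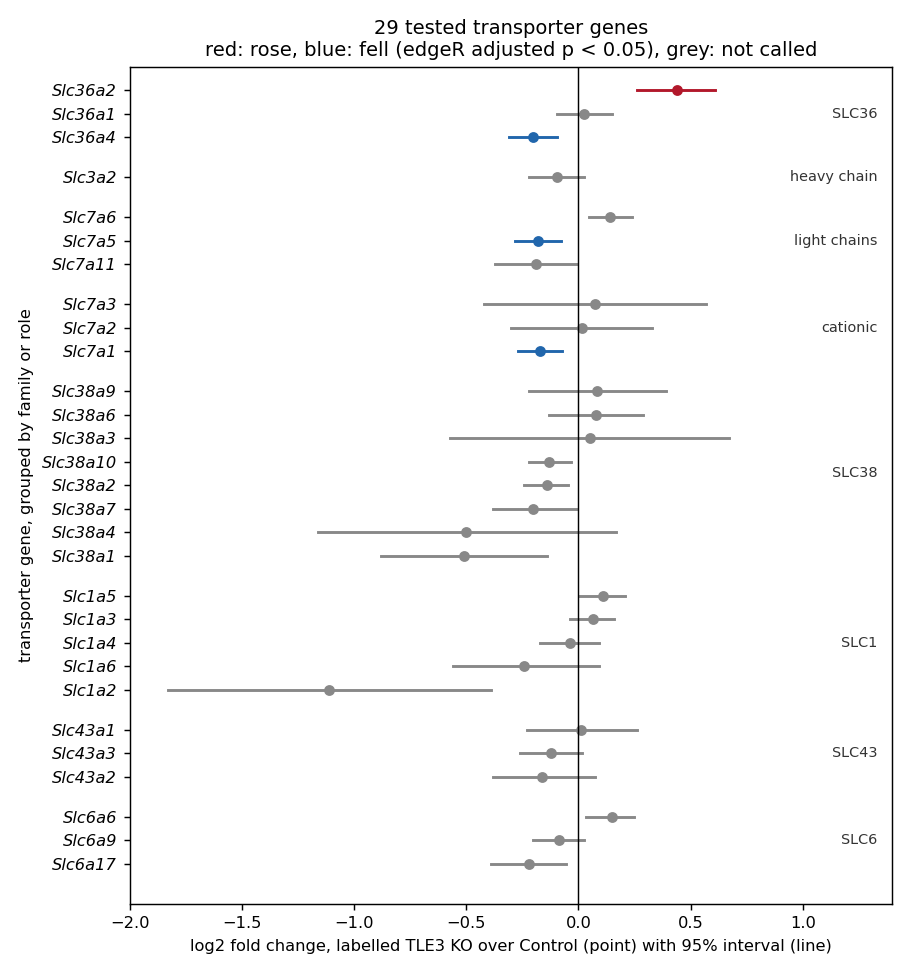
Log2 fold change of the 29 tested transporter genes (points; libraries labelled TLE3 KO over Control, n = 3 each) with 95% intervals (lines), grouped by family or role. Slc36a2 in red rose, Slc36a4, Slc7a5 and Slc7a1 in blue fell, and the widest intervals belong to the genes of lowest counts, Slc1a2, Slc38a3, Slc38a4 and Slc7a3.

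Among the 3 tested transporters of the SLC36 family, 1 member rose and another fell, while 6.91% of all tested genes rose and 5.44% fell. Slc36a2 (ENSMUSG00000020264), whose product PAT2 takes up glycine, alanine and proline, stood at 174.4, 206.4 and 205.8 CPM in the libraries labelled knockout, against 149.0, 156.6 and 128.2 CPM in controls. Every library labelled knockout was above every control; knockout 1 was the lowest of its group and control 3 the lowest of all 6. The means were 195.5 ± 18.3 CPM in knockout-labelled libraries and 144.6 ± 14.7 CPM in controls (SD, n = 3 each), and the log2 fold change was 0.44 (SE 0.080, edgeR adjusted p 0.00640), with a 95% interval of 0.26 to 0.61. The call held in each of the 6 fits that left out 1 library (log2 fold change 0.36 to 0.52, adjusted p 0.00354 to 0.0417) and was made by DESeq2 and limma-voom as well.

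Marker levels of the adipocyte are given beside Slc36a2. Among 8 thermogenic adipocyte markers 5 rose (Ucp1, Cidea, Ppargc1a, Cox7a1 and Cox8b) and 1 fell (Elovl3), while 6.91% of all tested genes rose and 5.44% fell. The summed level of these 8 markers was 830.0 to 968.1 CPM in the libraries labelled knockout and 506.7 to 603.3 CPM in controls. Among the 10 adipocyte markers 2 rose (Lipe and Slc2a4), the summed ranges of the groups overlapped, and the sum was lowest in control 3, the library with the lowest Slc36a2. Of the 10 preadipocyte and fibroblast markers 4 fell and 1 rose. Those that fell were Dcn (log2 −1.01), Lum (−1.04), Thy1 (−0.42) and Pdgfra (−0.38), and Dlk1 rose (0.72). Set against the sum of adipocyte markers in the same library, Slc36a2 stood at 15.7, 16.2 and 16.8 CPM per 1000 CPM of markers in the libraries labelled knockout and at 12.8, 13.2 and 12.8 in controls (log2 difference 0.33). Fabp4 (log2 0.26) and Lpl (log2 −0.16) were the largest parts of that sum. This ratio thus leans on them and was not computed without them. Set against the thermogenic markers, Slc36a2 was lower in the libraries labelled knockout, at 210.0, 213 and 219 per 1000 CPM, against 260.0, 260.0 and 253 in controls (log2 difference −0.26). Cidea was the largest part of the thermogenic sum, at a mean of 457.7 CPM in the libraries labelled knockout and 222.5 CPM in controls. Its log2 fold change of 1.04 was the highest of these markers, with Ucp1 next at 0.54. The thermogenic ratio thus leans on Cidea and was not computed without it. The part of the thermogenic and fibroblast markers in the Slc36a2 result was not tested. An exact two-sided permutation test over libraries gave p = 0.1 for each of these ratios, chosen after the values were seen, which is the smallest p that 3 against 3 libraries allow. In bulk RNA, more cells of a type and more RNA per cell cannot be told apart.

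Slc36a4 (ENSMUSG00000043885), which encodes PAT4, a transporter of proline and tryptophan, stood at 43.9, 44.7 and 42.5 CPM in the libraries labelled knockout, against 50.6, 51.8 and 48.4 CPM in controls. The groups did not overlap, and the log2 fold change was −0.20 (SE 0.049, edgeR adjusted p 0.0228), with a 95% interval of −0.31 to −0.093. DESeq2 did not call it (adjusted p 0.101), nor did edgeR when control 1, control 2, knockout 1 or knockout 3 was left out (0.0508 to 0.117). The lysosomal transporter gene Slc36a1 was at 35.2 ± 1.04 CPM in knockout-labelled libraries and 34.5 ± 1.13 CPM in controls (log2 0.027, adjusted p 0.799).

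**Figure D3:**
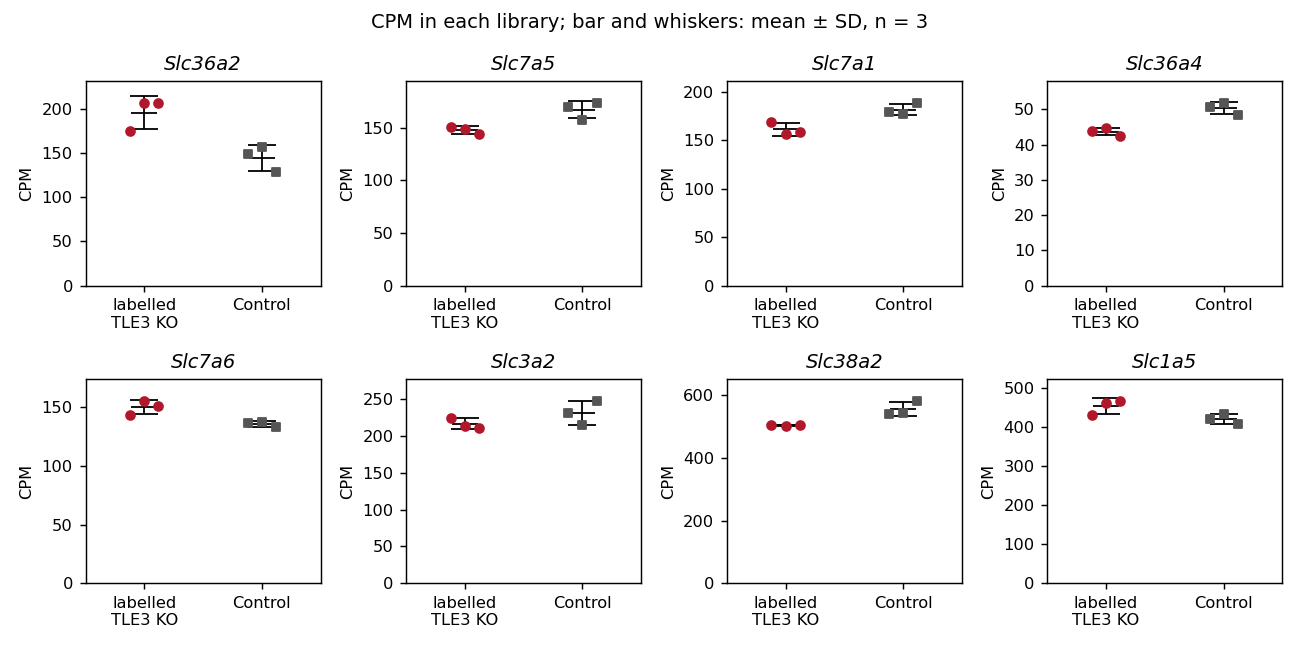
CPM of 8 transporter genes in each library, with the 3 libraries labelled TLE3 KO (red circles) left of the 3 controls (grey squares) and mean ± SD as bars. The groups of Slc36a2, Slc7a5, Slc7a1, Slc36a4, Slc7a6 and Slc38a2 do not overlap, while those of Slc3a2 and Slc1a5 do; only the first 4 panels show genes called by edgeR.

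The heavy chain did not pass the test, while one of its light chains fell. Slc3a2 (ENSMUSG00000010095) was at 224.4, 213.4 and 210.3 CPM in the libraries labelled knockout, against 231.0, 214.2 and 247.3 CPM in controls. The groups overlapped, and the log2 fold change was −0.096 (95% interval −0.22 to 0.024, edgeR adjusted p 0.280). Slc7a5 (ENSMUSG00000040010), the gene of the LAT1 light chain, which brings leucine and other large neutral amino acids into the cell, stood at 150.6, 149.1 and 143.5 CPM in the libraries labelled knockout, against 169.9, 157.6 and 173.4 CPM in controls. Each library labelled knockout was below each control, at a log2 fold change of −0.18 (SE 0.047, edgeR adjusted p 0.0304) whose 95% interval was −0.28 to −0.075. This call was lost without any 1 library other than control 2 (adjusted p 0.0552 to 0.148).

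The other light chains did not pass the test. Slc7a6 (ENSMUSG00000031904), the gene of the y+LAT2 light chain, which exchanges cationic for neutral amino acids, was at 143.3, 155.4 and 150.8 CPM in the libraries labelled knockout, against 136.4, 137.6 and 132.8 CPM in controls. The groups did not overlap and the log2 fold change was 0.14, just short of the threshold (edgeR adjusted p 0.0526). Without knockout 1 the gene was called (adjusted p 0.0429). Slc7a11 (ENSMUSG00000027737), the gene of the cystine and glutamate exchanger xCT, was at 23.4, 23.9 and 23.5 CPM in the libraries labelled knockout, against 29.0, 23.5 and 27.9 CPM in controls. Control 2 lay within the range of the libraries labelled knockout (log2 −0.19, adjusted p 0.158), and without that library the gene was called lower (log2 −0.27, adjusted p 0.0223). Slc7a7, the gene of the y+LAT1 light chain, had 18 counts in all in the libraries labelled knockout and 22 in controls and was not tested.

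Of the cationic transporters, which carry arginine, lysine and ornithine, the most abundant one fell. Slc7a1 (ENSMUSG00000041313), which encodes CAT1, stood at 168.7, 156.3 and 158.6 CPM in the libraries labelled knockout, against 178.8, 177.3 and 188.2 CPM in controls. The groups did not overlap, and the log2 fold change was −0.17 (SE 0.045, edgeR adjusted p 0.0317), with a 95% interval of −0.27 to −0.071. It was not called when control 1, control 3, knockout 2 or knockout 3 was left out (0.0847 to 0.143). Slc7a2 was at 14.2 ± 0.419 CPM in knockout-labelled libraries and 13.9 ± 3.36 CPM in controls (adjusted p 0.953), with control 3 alone at 17.8 CPM, and Slc7a3 was at 1.67 ± 0.078 CPM in knockout-labelled libraries and 1.56 ± 0.362 CPM in controls (adjusted p 0.877).

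Of the 8 SLC38 genes, edgeR called 0, against 12.3% of all tested genes. With so few genes, 0 calls say little about the family. An unadjusted p under 0.05 was found for 4 of them, a level reached by 27.9% of all tested genes. The log2 fold changes of the 8 genes ran from −0.51 to 0.083. Slc38a2 (ENSMUSG00000022462) was at 504.5, 502.0 and 502.8 CPM in the libraries labelled knockout, against 539.3, 543.2 and 581.1 CPM in controls. The groups did not overlap, and the adjusted p of 0.0603 (log2 −0.14) was under the threshold without control 2 (0.0437) and with library size alone as scaling (0.0471). Slc38a10 followed the same order, at 106.1 ± 2.93 CPM in knockout-labelled libraries and 115.8 ± 2.87 CPM in controls (log2 −0.13, adjusted p 0.0779), and was called with library size alone (0.0444).

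Slc38a1, the gene of the glutamine transporter SNAT1, had the lowest estimate in this family among genes over 5 CPM. It was at 9.10, 6.57 and 7.23 CPM in the libraries labelled knockout, against 11.3, 8.26 and 12.9 CPM in controls, so that control 2 lay below knockout 1 (log2 −0.51, 95% interval −0.88 to −0.14, edgeR adjusted p 0.0703). DESeq2 called it lower (adjusted p 0.0498), as did edgeR without control 2 (0.0115) or knockout 1 (0.0440), and limma-voom called 0 of the 8. Slc38a7, which encodes a lysosomal glutamine exporter, was at 26.1, 23.2 and 24.0 CPM in knockout-labelled libraries, against 29.4, 24.5 and 29.7 CPM in controls (adjusted p 0.157), and was called lower without control 2 (0.0290). Slc38a9, which encodes a lysosomal arginine sensor upstream of the growth kinase complex mTORC1, was at 6.83 ± 0.525 CPM in knockout-labelled libraries and 6.41 ± 1.08 CPM in controls (adjusted p 0.752). Slc38a6 was at 12.1 ± 0.574 CPM in knockout-labelled libraries and 11.4 ± 1.04 CPM in controls, Slc38a4 at 1.91 ± 0.894 CPM in knockout-labelled libraries and 2.74 ± 0.707 CPM in controls, and Slc38a3 at 0.858 ± 0.194 CPM in knockout-labelled libraries and 0.832 ± 0.102 CPM in controls (adjusted p 0.315 to 0.932).

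The 5 SLC1 genes gave 0 calls by edgeR, against 12.3% of all tested genes, which says little for so few genes. An unadjusted p under 0.05 was found for 2 of them (27.9% of all tested genes). DESeq2 called 0 and gave no adjusted p for Slc1a2, which limma-voom called. Slc1a5 (ENSMUSG00000001918) was at 429.3, 461.3 and 466.6 CPM in the libraries labelled knockout, against 419.6, 431.3 and 406.7 CPM in controls. Knockout 1 lay below control 2, and the log2 fold change was 0.11 (95% interval 0.0073 to 0.21, edgeR adjusted p 0.153). The glutamate transporter gene Slc1a2 had few counts, with 7, 4 and 5 counts in the libraries labelled knockout against 14, 11 and 15 counts in controls. Its groups did not overlap, and its log2 fold change of −1.11 had a wide interval, from −1.83 to −0.39 (edgeR adjusted p 0.0501; limma-voom 0.0421; edgeR with library size alone 0.0478). Slc1a3, another glutamate transporter gene, was at 71.1 ± 1.64 CPM in knockout-labelled libraries and 68.1 ± 2.21 CPM in controls, Slc1a4, the gene of the alanine, serine and cysteine exchanger ASCT1, at 43.2 ± 2.74 CPM in knockout-labelled libraries and 44.4 ± 2.08 CPM in controls, and Slc1a6 at 3.67 ± 0.430 CPM in knockout-labelled libraries and 4.31 ± 0.417 CPM in controls (adjusted p 0.337 to 0.723).

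Among the remaining carriers 0 of 6 were called by edgeR, DESeq2 or limma-voom, with 2 at an unadjusted p under 0.05 by edgeR (27.9% of all tested genes). As edgeR called 12.3% of all tested genes, 0 calls among so few say little. In SLC43, Slc43a1 and Slc43a2 encode facilitative carriers of branched-chain and other neutral amino acids. Slc43a1 was at 9.42 ± 1.22 CPM in knockout-labelled libraries and 9.34 ± 0.365 CPM in controls, and Slc43a2 at 17.2, 14.4 and 13.3 CPM in knockout-labelled libraries, against 16.8, 15.3 and 17.9 CPM in controls. Slc43a3, whose product carries purine nucleobases, was at 54.3 ± 2.77 CPM in knockout-labelled libraries and 59.0 ± 4.62 CPM in controls. None passed (adjusted p 0.238 to 0.956). In SLC6, Slc6a6 was at 483.7, 522.7 and 520.2 CPM in the libraries labelled knockout, against 436.7, 467.7 and 475.5 CPM in controls, without overlap (log2 0.15, adjusted p 0.0803). Slc6a17, whose product loads neutral amino acids into synaptic vesicles, was at 39.7, 34.9 and 33.3 CPM in the libraries labelled knockout, against 40.3, 39.9 and 45.6 CPM in controls, again without overlap (log2 −0.22, adjusted p 0.0820, or 0.0326 without knockout 1). The glycine transporter gene Slc6a9 was at 58.0 ± 0.984 CPM in knockout-labelled libraries and 61.6 ± 3.59 CPM in controls (adjusted p 0.307).

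**Figure D4:**
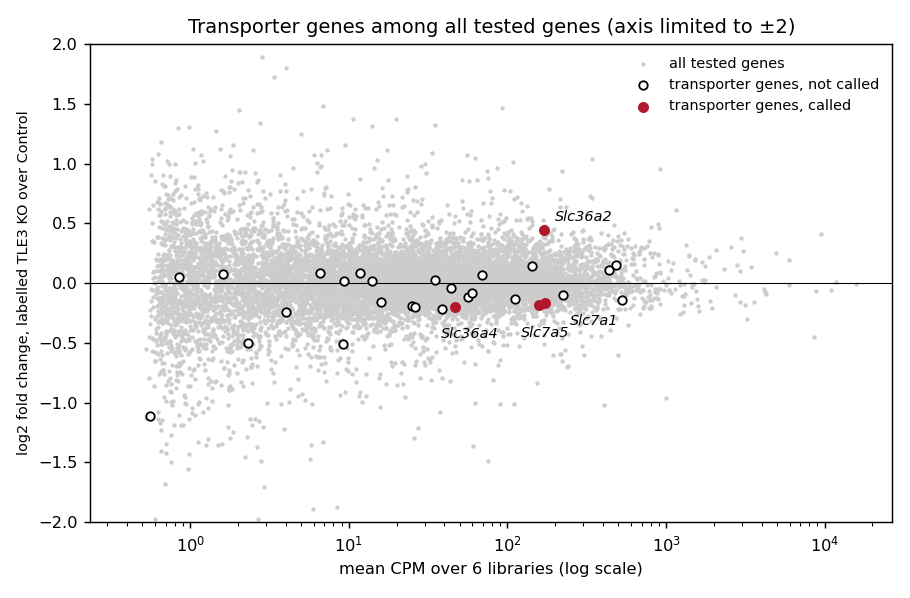
Log2 fold change (libraries labelled TLE3 KO over Control) against mean CPM over the 6 libraries (log axis) for all tested genes (grey), with the 4 called transporter genes in red and the other 25 as open circles. The vertical axis ends at plus and minus 2 and leaves out 16 genes, none of them a transporter; Slc36a2 at 0.44 is the highest of the transporters and Slc1a2 at −1.11 the lowest.

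In 10 of the 29 tested genes the groups did not overlap, with the libraries labelled knockout above in 3 (Slc36a2, Slc7a6 and Slc6a6) and below in 7 (Slc36a4, Slc7a5, Slc7a1, Slc38a2, Slc38a10, Slc6a17 and Slc1a2). Over all tested genes the groups did not overlap in 31.8%, with the libraries labelled knockout above in 16.0% and below in 15.8%. The number of transporter genes that fell depended on single libraries. It was 0 without control 1 or knockout 3, 1 without control 3 or knockout 2, and 6 without control 2 (Slc7a5, Slc7a1, Slc7a11, Slc38a1, Slc38a2 and Slc38a7), and it was 6 with library size alone as scaling (with Slc38a2, Slc38a10 and Slc1a2 added), where 1 rose. The number that rose was 2 without knockout 1, where Slc7a6 joined Slc36a2.

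Lists of genes that act around the transporters were called at 5.56% to 24.1%, against 12.3% of all tested genes. Among 29 tested genes of the ATF4-driven amino acid response, 2 rose and 2 fell, or 13.8% (median log2 −0.0097). Those that rose were Atf5, a transcription factor related to ATF4, at 312.6 ± 3.66 CPM in knockout-labelled libraries and 268.2 ± 9.46 CPM in controls (adjusted p 0.00717), and the mitochondrial folate enzyme gene Mthfd2, at 187.5 ± 0.624 CPM in knockout-labelled libraries and 169.4 ± 3.87 CPM in controls (0.0312). The serine synthesis gene Psat1 (log2 −0.15, adjusted p 0.0299) and the alanine transaminase gene Gpt2 (log2 −0.23, adjusted p 0.00888) fell. The call for Mthfd2 was lost in every fit that left out 1 library (0.0537 to 0.126) and with DESeq2 (0.0624), that for Psat1 without control 1 or any 1 of the libraries labelled knockout (0.0727 to 0.129), and that for Atf5 without knockout 3 (0.0506). Of 20 cytosolic tRNA synthetase genes, which load transported amino acids onto tRNA, Wars (log2 0.23, adjusted p 0.00591), Farsb (0.17, 0.0275) and Gars (0.16, 0.0252) rose and 0 fell, or 15% of the list, whose median log2 fold change was −0.02. The call for Wars held without each library in turn, while those for Farsb and Gars held only without control 2 (otherwise 0.0552 to 0.123), and DESeq2 did not call Farsb (0.0626).

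Of 36 genes of amino acid sensing by mTORC1, Mtor, which encodes the kinase itself, rose to 152.8 ± 6.34 CPM in the libraries labelled knockout, against 131.1 ± 7.33 CPM in controls (log2 0.22, edgeR adjusted p 0.0184). Fnip2, which encodes a partner of folliculin, fell (log2 −0.22, adjusted p 0.0245), so that 5.56% of this list was called. The call for Mtor was lost without knockout 2 (0.0547) or knockout 3 (0.101), and that for Fnip2 with DESeq2 (0.0707) and without control 3 or any 1 of the libraries labelled knockout (0.0586 to 0.0900). Of 10 other amino acid and peptide transporter genes, 2 rose and 0 fell, or 20.0%. Mfsd12, whose product imports cysteine into lysosomes, was at 96.5 ± 5.99 CPM in knockout-labelled libraries and 80.0 ± 7.26 CPM in controls (log2 0.27, adjusted p 0.0269), and the taurine and GABA transporter gene Slc6a13 at 2.35 ± 0.604 CPM in knockout-labelled libraries and 1.28 ± 0.109 CPM in controls (log2 0.86, adjusted p 0.0350). The call for Mfsd12 was lost when control 3, knockout 2 or knockout 3 was left out (0.0559 to 0.100), and that for Slc6a13 with DESeq2 (0.0896) and without any 1 library other than knockout 1 (0.0617 to 0.135).

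Of 29 enzymes that use the transported amino acids, 5 rose and 2 fell, or 24.1% against 12.3% of all tested genes, with a median of −0.01. Prodh, which starts the breakdown of proline, was at 9.79, 7.95 and 8.57 CPM in the libraries labelled knockout, against 4.23, 5.69 and 5.87 CPM in controls. Its groups did not overlap (log2 0.74, SE 0.14, edgeR adjusted p 0.00824). Gpt, which transfers the amino group of alanine to make glutamate and pyruvate, rose (log2 0.58) to 66.9 ± 4.34 CPM in the libraries labelled knockout, against 44.8 ± 4.71 CPM in controls (adjusted p 0.00115), while its mitochondrial counterpart Gpt2, counted above, fell. The calls for Prodh, Gpt and Gpt2 held without each library in turn. The aspartate transaminase gene Got2 (log2 0.22, adjusted p 0.0107) and the serine hydroxymethyltransferase gene Shmt1 (log2 0.16, adjusted p 0.0311) rose, as did Got1, the cytosolic counterpart of Got2 (log2 0.18, adjusted p 0.0328), and Gclm, a subunit of the enzyme that starts glutathione synthesis, fell (log2 −0.21, adjusted p 0.0494). The call for Got2 was lost without knockout 3 (0.0673), that for Got1 without control 1, control 3, knockout 1 or knockout 3 (0.0731 to 0.152), that for Shmt1 with DESeq2 (0.124) and without any 1 library other than knockout 1 (0.0518 to 0.124), and that for Gclm with DESeq2 (0.0576), limma-voom (0.0526) and without each library in turn (0.0514 to 0.175).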

How the data were processed

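The authors deposited whole-number read counts per gene with Ensembl IDs and gene names, per the file headers. They also deposited FPKM values, rounded to whole numbers and treated here as a score, used only to compare levels between genes. Per the submitters' processing notes, Novoalign 2.8, Picard and DESeq2 were used with build mm9; for what each did, and for the read counter, annotation and strand setting, the answer is not given in the sources used here. The table lists genes with at least 10 counts in at least 1 library. Exons of 8 of the 30 transporter genes, Slc1a2, Slc38a9, Slc38a10, Slc43a2, Slc6a6, Slc6a9, Slc7a2 and Slc7a7, overlap a gene on the other strand in GENCODE M21 and are uncertain for that reason; the 4 called genes were not among them.

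The counts went into edgeR 4.0.16 (R 4.3.3), with the package's expression filter (770 genes set aside), TMM scaling, and the quasi-likelihood test of TLE3 KO against Control with the group alone in the model. P-values were adjusted by the Benjamini-Hochberg method over all 13192 tested genes, and a gene rose or fell at an adjusted p under 0.05. Each SE was derived from the fold change and its F statistic. Values after ± are SDs of 3 libraries. The biological coefficient of variation was 5.25%. Replicate counts varied beyond sampling noise (ratio of chi-square to degrees of freedom 2.97 to 7.81), so each counted as 1 sample. Alternatives were DESeq2 1.42.0, limma-voom (limma 3.58.1), other scalings, no filter, a replicate block, and leaving out each library. Promoter windows came from RefSeq; those of Slc1a5, Slc36a2, Slc38a1, Slc38a3, Slc43a3, Slc6a6, Slc7a2, Slc7a3 and Slc7a5 were not matched. Genes given per library are Tle3, all called transporters and a fixed set (Slc3a2, Slc7a5, Slc7a8, Slc7a10, Slc7a11, Slc36a2, Slc38a2, Slc1a5; Slc7a8 and Slc7a10 not analysed here), with others near the threshold added after their values were seen; from the context lists, all called genes are named where 6 or fewer, otherwise the 4 of smallest adjusted p in each direction, with Got1 added. The transporter genes, the lists and the rule were chosen with earlier results of these data known.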

Additional observations from a re-analysis of the deposited data

How the results depend on the processing

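The changed genes over the whole table numbered 1629, and from 621 to 1895 without 1 library in turn. The transporter genes that rose numbered 1, and from 1 to 2 without 1 library; those that fell numbered 3, and from 0 to 6 without 1 library, and 6 with library size alone. Leaving 1 out also leaves fewer to test with. The estimates of 6 genes near 0, which no fit called, changed sign without 1 library in turn: Slc7a2 (−0.087 to 0.25), Slc7a3 (−0.056 to 0.28), Slc43a1 (−0.092 to 0.085, and −0.0027 with library size alone), Slc1a4 (−0.092 to 0.0017), Slc38a3 (−0.13 to 0.18) and Slc38a9 (−0.013 to 0.24). Relative to thermogenic markers, a scale chosen after seeing the data and of which Cidea is the largest part, Slc36a2 was at −0.26. With a replicate block 1809 genes changed, and 1 transporter gene rose and 4 fell, Slc38a1 (adjusted p 0.0220) being the added one; among the context genes Psat1 (0.0574) and Mthfd2 (0.0569) were no longer called. The replicate numbers do not show pairing: deviations of same-numbered libraries correlated at −0.0396 to 0.191, and those of other pairs at −0.235 to 0.227. Gclm was also not called with RLE size factors (0.0540) or no low-count filter (0.0502). At these depths genes under 5 CPM had wide intervals, with 0 of 5 tested inside −0.5 to 0.5.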

Other observations

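Ratios of counts within a library do not depend on how libraries are scaled, and 3 such ratios between transporters were examined after the values were seen. Both light chain genes Slc7a5 (LAT1) and Slc7a6 (y+LAT2) encode partners of the heavy chain 4F2hc. Their count ratio, Slc7a5 over Slc7a6, was 1.05, 0.959 and 0.952 in the libraries labelled knockout, against 1.25, 1.15 and 1.31 in controls (log2 difference −0.32). The glutamine carriers Slc1a5 (ASCT2) and Slc38a2 (SNAT2) had a ratio of 0.851, 0.919 and 0.928 in the libraries labelled knockout, against 0.778, 0.794 and 0.700 in controls (log2 difference 0.25). Slc36a2 over Slc36a1 was 4.95, 6.05 and 5.69 in the libraries labelled knockout, against 4.24, 4.72 and 3.65 in controls (log2 difference 0.41). The groups did not overlap in any of the 3 ratios, and the exact two-sided permutation test gave p = 0.1 for each. That is the smallest p that 3 against 3 libraries allow. The libraries labelled knockout lay below all controls in Slc7a5 and above them in Slc7a6, so the ratio of these genes could only separate the groups. Slc38a2 and Slc36a2 had separated the groups as well, so these tests lend the ratios no support. How often ratios of other gene pairs separate the groups was not computed. A ratio shows unequal change of its genes and not which of them changed.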
